A study of Mus musculus with 18 samples.

Results

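A set of 5 genes that naive splenic B cell samples expressed and that were much lower after a day with CpG is described here: Mylip, Tcp11l2, Shisa5, Kbtbd11 and Arhgef18. They were chosen by a steep fall in reads after CpG and by a naive level that was steady between replicates or was shared with B cells. They are 5 of the 28374 genes that could be matched by name between the 2 strain annotations, and 5 of the 10343 genes that were tested with both alleles summed. The fall and the naive spread chose them, so both are given below as descriptions without a test. The rule named no numeric limit for either.

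The samples were splenic CD23+ B cells of female F1 mice of a 129S1 by Cast cross, sequenced as bulk RNA. All were heterozygous for Xist (Xist+/-), a genotype that both groups share and under which, per the labels, it was the Cast X that was silenced. The naive group of 3 samples received no treatment. The stimulated group of 3 samples was kept in vitro with 1 µM CpG for 24 h. No group was kept in vitro for 24 h without CpG. Changes due to CpG and changes due to the culture therefore cannot be told apart, and "after CpG" below means after both. Nothing in the labels says that replicates came from separate animals or cultures, so p-values measure only the spread between these samples, which may be technical. The other 12 of the 18 samples in the series are not analysed here.

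CpG oligonucleotides are unmethylated DNA that the endosomal receptor TLR9 senses, and B cells answer them by leaving quiescence, growing and dividing. CD23, the low-affinity IgE receptor encoded by Fcer2a, marks the follicular B cells that were sorted. Resting follicular cells depend on a set of genes for homing and quiescence, among them Klf2 and S1pr1, which activated B cells switch off. The 5 genes serve different roles. Mylip, also called Idol, is a ubiquitin ligase induced by the sterol receptors LXR that sends lipoprotein receptors for degradation. Shisa5, or Scotin, is a membrane protein of the endoplasmic reticulum induced by p53 that promotes apoptosis. Arhgef18, or p114RhoGEF, is an exchange factor that activates RhoA. Kbtbd11 is a BTB-kelch protein, a family whose members bring substrates to cullin 3 ubiquitin ligases. Tcp11l2 is a relative of the testis protein Tcp11 and has been described as a partner of the formin Fmnl2.

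Each sample had 1 table of read counts for the 129 allele and 1 for the Cast allele. A 129 table held between 1987266 and 2928236 gene reads and a Cast table between 2465073 and 3321753, which gave 4452339 to 6249989 per sample over both. Between 44.5% and 67.1% of the reads in a table were assigned to no gene. Levels are given as reads and as CPM, reads scaled to a common total, after TMM scaling. CPM takes no account of gene length, so levels are compared between samples and not between genes.

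The start-site windows of the members are shown because the genes fell together. A window of 250 bases before and 50 bases after the annotated start was found for 4 of the 5 genes in RefSeq, assembly GRCm38.p6; Kbtbd11 had none there. Where a gene had several, the one whose start was nearest to the gene's start in the GRCm38 gene annotation is shown; for Tcp11l2 the 2 starts were 321 bases apart and the window lies inside the gene, and for the other 3 they were at most 2 bases apart. All 4 lie on the plus strand, at chr13:45389492-45389791 for Mylip, chr10:84576697-84576996 for Tcp11l2, chr9:109038317-109038616 for Shisa5 and chr8:3392758-3393057 for Arhgef18. They hold the reference sequence and not that of 129S1 or Cast. Capitals mark matches to the motifs searched.
Mylip: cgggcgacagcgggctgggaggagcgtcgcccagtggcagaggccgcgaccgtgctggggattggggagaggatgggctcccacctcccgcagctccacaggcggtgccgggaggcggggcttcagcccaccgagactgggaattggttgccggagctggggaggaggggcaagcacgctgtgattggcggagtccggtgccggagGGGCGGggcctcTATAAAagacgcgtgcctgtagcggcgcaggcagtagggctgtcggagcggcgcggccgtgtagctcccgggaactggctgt
Tcp11l2: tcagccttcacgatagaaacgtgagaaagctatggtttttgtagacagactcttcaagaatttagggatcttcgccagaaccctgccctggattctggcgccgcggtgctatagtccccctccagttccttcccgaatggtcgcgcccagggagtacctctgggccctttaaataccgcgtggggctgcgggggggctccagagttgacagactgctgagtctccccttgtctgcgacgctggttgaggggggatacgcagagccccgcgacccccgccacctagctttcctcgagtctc
Shisa5: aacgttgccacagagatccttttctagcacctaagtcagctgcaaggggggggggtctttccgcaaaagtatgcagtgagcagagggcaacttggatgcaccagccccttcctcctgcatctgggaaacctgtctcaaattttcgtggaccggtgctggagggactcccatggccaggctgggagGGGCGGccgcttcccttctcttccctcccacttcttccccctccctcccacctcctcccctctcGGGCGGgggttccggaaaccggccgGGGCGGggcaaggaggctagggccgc
Arhgef18: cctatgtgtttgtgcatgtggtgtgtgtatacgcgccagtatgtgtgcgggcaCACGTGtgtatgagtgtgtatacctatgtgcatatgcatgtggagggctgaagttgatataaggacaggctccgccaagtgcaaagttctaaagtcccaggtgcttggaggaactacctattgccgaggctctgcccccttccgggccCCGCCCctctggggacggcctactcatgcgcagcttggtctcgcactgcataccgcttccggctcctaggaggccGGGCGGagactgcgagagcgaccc

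In all, 8 motifs were searched on both strands of these windows. The KLF box CCACCC, the FOXO motif GTAAACA, the ETS motif CCGGAAGT, the PU.1 motif GAGGAAGT (which shares its last 6 bases with the ETS motif) and the NF-kB motif, GGGAN followed directly by TTTCC, had no match in any of the 4 windows. Of all 32851 RefSeq windows of this length, 31.5%, 3.65%, 3.89%, 3.2% and 0.411% held them, in that order. The E-box CACGTG, the motif of MYC, occurred once, in Arhgef18, and in 7.15% of all windows. The GC box GGGCGG occurred once in Mylip, 3 times in Shisa5 and 2 times in Arhgef18, and in 35.7% of all windows. The TATA box TATAAA occurred only in Mylip among the 4, and in 13.6% of all windows. The GC and TATA boxes were added to the search after the sequences had been read. The windows differed in base composition, with 71% G and C in Mylip, 63.3% in Shisa5, 59% in Tcp11l2 and 58.3% in Arhgef18, against a median of 52.7% over all windows. No motif searched was in all 4. RefSeq has 5 windows for Shisa5 and 2 for Arhgef18, and the matches hold only for the window shown.

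With both alleles summed, Mylip was the steadiest of the 5 in naive cells. On the 129 allele it had 834, 925 and 762 reads in naive replicates 1, 2 and 3 and 68, 63 and 50 in the stimulated replicates, and on the Cast allele 651, 666 and 590 against 62, 67 and 74. Every stimulated sample was far below every naive sample on either allele. With both alleles summed it was at 364 ± 8.49 CPM (SD, n = 3) in naive and 25.6 ± 1.27 CPM (SD, n = 3) in stimulated samples, 14.2-fold lower. The log2 difference was -3.83 with an SE of 0.10, and the lowest naive sample was still 13.3 times the highest stimulated one. Mylip lies at chr13:45389742-45412022 in GRCm38, and its gene models are MGP_129S1SvImJ_G0020507 and MGP_CASTEiJ_G0019771.

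Tcp11l2 (MGP_129S1SvImJ_G0017592 and MGP_CASTEiJ_G0016924, chr10:84576626-84614359 in GRCm38) had 582, 619 and 522 naive reads on the 129 allele and 24, 32 and 21 after CpG. The Cast allele had 414, 593 and 370 naive reads and 29, 23 and 19 after CpG. The groups did not overlap on either allele, and naive replicate 2 had the most naive reads on both; in CPM it was the highest on the Cast allele alone. Summed, the level went from 254 ± 22.2 CPM (SD, n = 3) to 9.88 ± 1.80 CPM (SD, n = 3), 25.7-fold lower, with a log2 difference of -4.68 and an SE of 0.15.

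Shisa5 (MGP_129S1SvImJ_G0035321 and MGP_CASTEiJ_G0034315, chr9:109038565-109057777 in GRCm38) had the most reads. The 129 allele gave 2648, 3280 and 2103 naive reads and 185, 224 and 218 after CpG, and the Cast allele 2518, 3335 and 2131 against 164, 209 and 159. On both alleles the naive samples were high and the stimulated ones low, with no overlap. The summed level was 1306 ± 192 CPM (SD, n = 3) in naive and 77.2 ± 8.01 CPM (SD, n = 3) in stimulated samples, 16.9-fold lower, with a log2 difference of -4.08 and an SE of 0.15.

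Kbtbd11 (MGP_129S1SvImJ_G0033399 and MGP_CASTEiJ_G0032415, chr8:15011025-15033333 in GRCm38) had the deepest fall of the 5. Its 129 allele had 193, 132 and 116 naive reads and 2, 5 and 2 stimulated reads, and its Cast allele 1245, 850 and 985 against 28, 27 and 27. Nearly all of its reads, before and after CpG, were thus in the Cast tables. Summed, 291 ± 59.3 CPM (SD, n = 3) went to 6.07 ± 0.369 CPM (SD, n = 3), 47.9-fold lower, with a log2 difference of -5.58 and an SE of 0.19. On the 129 allele the pooled reads gave a 61.7-fold fall with a 95% interval of 32.2 to 136 that covers counting error only and not the spread between samples. Leaving out stimulated replicate 2, the sample with 5 of those reads, moved its log2 difference from -5.88 to -6.44. Kbtbd11 overlaps the antisense gene 5830468F06Rik, which had 14 reads over all samples, and whether the counting used strand is not given in the sources used here.

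Arhgef18 (MGP_129S1SvImJ_G0033301 and MGP_CASTEiJ_G0032321, chr8:3393006-3456601 in GRCm38) had 656, 510 and 460 naive reads on the 129 allele and 37, 44 and 36 after CpG. On the Cast allele it had 1598, 1252 and 1400 naive reads and 76, 93 and 82 after CpG. No stimulated sample came near a naive one. The summed level fell from 485 ± 69.6 CPM (SD, n = 3) to 24.5 ± 2.43 CPM (SD, n = 3), 19.8-fold, with a log2 difference of -4.30 and an SE of 0.15. The files keep a neighbouring gene model, A430078G23Rik, which RefSeq lists as another name of Arhgef18. It had 496, 476 and 438 naive reads and 26, 51 and 19 after CpG over both alleles, and its log2 difference was -4.17 with an SE of 0.27. Reading it beside Arhgef18 was chosen after seeing the data.

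**Figure D1:**
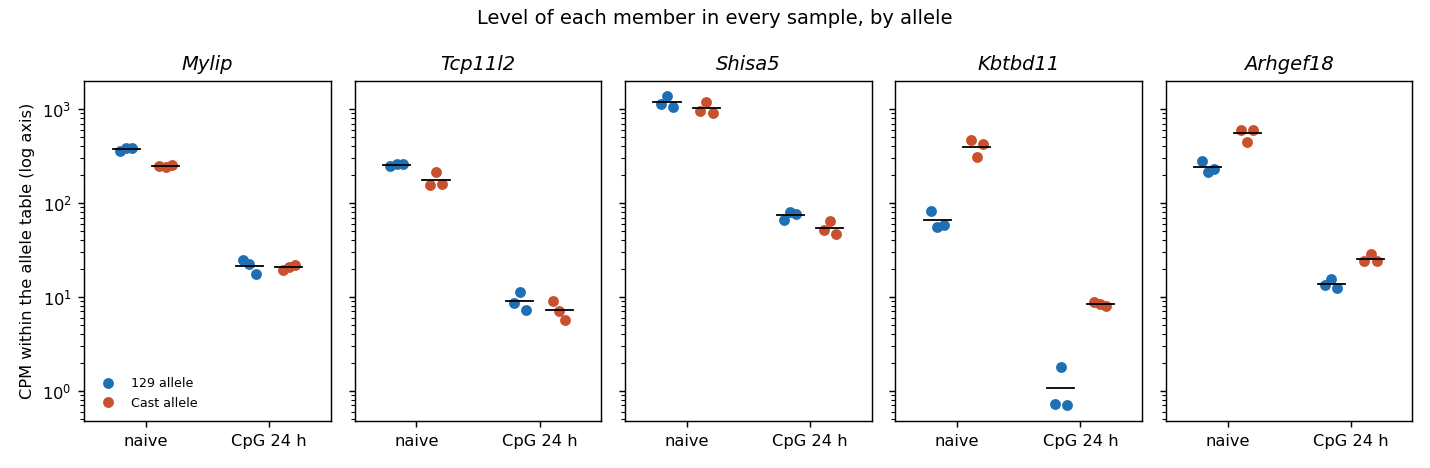
Level of each member in CPM on a log axis, with 1 point per sample, the 129 and the Cast allele in separate colours and a line at each mean of 3 samples. In all 5 genes the 3 naive points lie above the 3 stimulated points on both alleles, and the gap between alleles is widest for Kbtbd11.

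In all 5 genes every stimulated sample was below every naive sample on both alleles. That separation also held for 32.2% of the 10581 genes tested on the 129 allele, 34.8% of the 10365 tested on the Cast allele and 37% of the 10343 tested with both summed. In the edgeR fits 55.2% of the genes on the 129 allele, 62.2% on the Cast allele and 68.7% with both summed passed an adjusted p of 0.05 in either direction. With both summed, 34.4% of all genes tested were lower after CpG and 34.2% were higher, and the median log2 difference of all genes was -0.01. The rule used this contrast, so these shares are only the setting of the members. By size of the fall among all 10343 genes tested, Kbtbd11 was at place 215, Tcp11l2 at 298, Arhgef18 at 341, Shisa5 at 368 and Mylip at 408. Of all genes tested, 3563 were called lower. They were therefore steep but not extreme. What was left after CpG was 7.03% of the naive level for Mylip, 5.91% for Shisa5, 5.06% for Arhgef18, 3.89% for Tcp11l2 and 2.09% for Kbtbd11. In bulk samples, fewer cells of a type and less RNA of a gene per cell cannot be told apart. CPM is a share of a common total, so a change in total RNA per cell cannot be told apart from these either.

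All 5 genes fell steeply on both alleles, with the widest gap between alleles in Mylip, 17.5-fold on the 129 and 11.9-fold on the Cast allele. Mylip had a log2 difference of -4.13 on the 129 and -3.57 on the Cast allele, Tcp11l2 -4.81 and -4.59, Shisa5 -4.00 and -4.23, Kbtbd11 -5.88 and -5.57, and Arhgef18 -4.12 and -4.43. The change of the log2 Cast over 129 ratio from naive to stimulated samples was 0.57 (SE 0.18) in Mylip, 0.23 (SE 0.23) in Tcp11l2, -0.23 (SE 0.11) in Shisa5, 0.33 (SE 0.30) in Kbtbd11 and -0.30 (SE 0.13) in Arhgef18. These 5 values have no test, since the falls chose the genes. Over all 9783 genes tested for such a change, 102 passed, which is 1.04%, and between 15 and 30 passed when any 1 sample was left out.

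The spread of the naive level between replicates is given as a coefficient of variation (CV), with both alleles summed. It was 2.33% in Mylip, 8.76% in Tcp11l2, 14.4% in Arhgef18, 14.7% in Shisa5 and 20.4% in Kbtbd11. The median over all 6216 genes with a naive mean of at least 100 reads was 10.03%, so Mylip and Tcp11l2 were steadier than the median gene and the other 3 were not. By allele, the naive CV of Tcp11l2 was 2.22% on the 129 and 18.5% on the Cast allele, and that of Mylip 3.76% and 2.70%. Without naive replicate 2 the median CV of the 5 members went from 14.4% to 3.76%. Among genes with that many reads, 267 had a log2 difference of -3 or lower, and their median CV was 31.1%. Of these, 67 had a CV of at most 20%, which Kbtbd11 missed narrowly at 20.4%. Both limits were chosen after seeing the data and serve only to place the members.

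**Figure D2:**
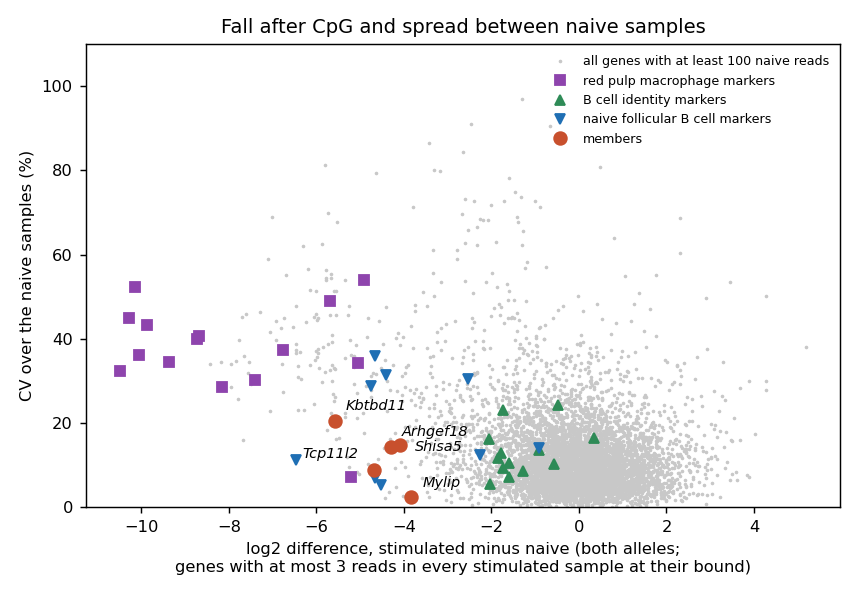
Log2 difference between stimulated and naive samples (horizontal) against the CV over the 3 naive samples in percent (vertical), for the 6216 genes with at least 100 naive reads on average, with members and 3 marker lists in colour; 1 gene with a CV above the axis is not drawn. The members sit at -5.58 to -3.83 with a CV of 2.33% to 20.4%, among the naive follicular B cell markers and below most of the red pulp macrophage markers, whose median CV was 37.4%.

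The naive samples differed in the summed level of marker lists, and the members did not all have the same order over them. The summed level of 16 red pulp macrophage markers, led by Hmox1 (a heme-degrading enzyme), C1qb (a complement component) and Slc40a1 (the iron exporter ferroportin), was 8118, 3861 and 4976 CPM in naive replicates 1, 2 and 3, a 2.10-fold range. Over their naive mean these are 1.44, 0.683 and 0.880. The 7 matched dendritic cell markers followed with 1.25, 0.843 and 0.908. The 13 matched B cell identity markers ran the other way, at 0.970, 1.06 and 0.971, and so did 9 naive follicular B cell markers at 0.935, 1.12 and 0.947. The B cell lists were highest in naive replicate 2, where the macrophage and dendritic cell lists were lowest.

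Kbtbd11, at 1.18, 0.779 and 1.04 of its naive mean, and Arhgef18, at 1.11, 0.838 and 1.05, were lowest in naive replicate 2 and highest in naive replicate 1, as the macrophage, dendritic cell and T cell lists were. Their ranges, 1.52-fold and 1.33-fold from lowest to highest, were smaller than that of the macrophage list. In the T cell list Cd4 had by far the most naive reads (208, 109 and 133). Other T cell genes did not share its order, among them Lck (31, 59 and 36) and Cd8b1 (12, 26 and 16). Shisa5, at 0.944, 1.17 and 0.889, and Tcp11l2, at 0.936, 1.10 and 0.964, were highest in naive replicate 2, as the B cell lists were, but also the NK cell and plasma cell lists, both at 1.24 there. Mylip, at 0.974, 1.01 and 1.02, hardly moved. With 3 samples these are values side by side. The part of other cells in any of the 5 levels was not tested.

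**Figure D3:**
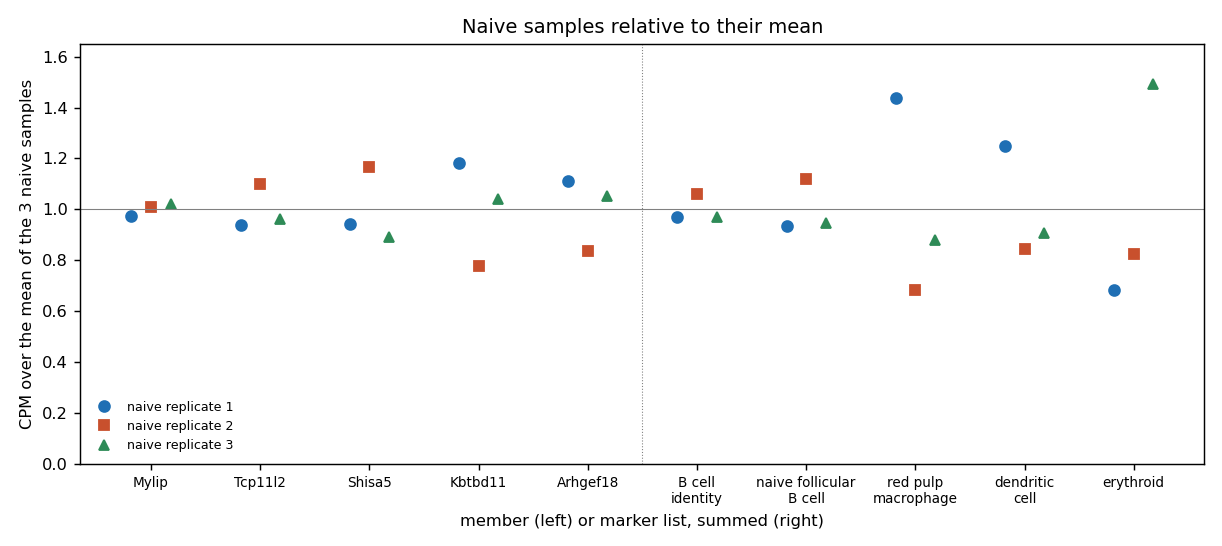
CPM of each naive sample over the mean of the 3 naive samples, for the members on the left and for summed marker lists on the right, with 1 symbol per replicate. Kbtbd11 and Arhgef18 are lowest in naive replicate 2, like the macrophage and dendritic cell lists, and Shisa5 and Tcp11l2 are highest there, like the 2 B cell lists.

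After CpG the lists parted further. All 16 macrophage markers passed the test as lower, and their sum fell to between 27.9 and 37.5 CPM, 0.597% of its naive level. Of them, 11 had at most 3 reads in every stimulated sample, and Fcna and Siglec1 had 0 reads in all 3. The 9 naive follicular markers, among them Ighd (IgD) and Fcmr (the IgM Fc receptor), also all passed as lower. Their sum fell from between 9111 and 10894 CPM to between 508 and 582, or 5.48% of its naive level, and their median log2 difference was -4.53. Fcer2a, the gene of the sorting marker CD23, went from 518 ± 186 CPM (SD, n = 3) to 20.6 ± 2.30 CPM (SD, n = 3).

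Of the 13 B cell identity markers, led by Ms4a1 (CD20), Fcrla and Cd79b (a chain of the B cell receptor), 12 were lower and Pou2af1 did not pass, at an adjusted p of 0.0622 in edgeR. Pou2af1 passed as higher when genes of low count were kept (0.0183) and without naive replicate 3 (0.0211). Pax5 was among the 12 but did not pass without naive replicate 2 or without stimulated replicate 1 or 3. The list kept 38.8% of its naive level, between 5888 and 6794 CPM in stimulated samples. The members kept 2.09% to 7.03%. Kbtbd11, Tcp11l2 and Arhgef18 lay between the macrophage and the follicular sum, and Shisa5 and Mylip lay above the follicular sum.

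The lists of further cell types are given as sums over their matched genes. Only 6 of 11 erythroid and 6 of 10 monocyte and neutrophil genes were matched. The globin genes and Lyz2 were among those without a match, so these sums are incomplete. The monocyte and neutrophil list summed to at most 43.1 CPM in a naive sample, T cells to 73.5, NK cells to 24.9, platelets to 5.21, dendritic cells to 104 and erythroid cells to 214. In stimulated samples the same lists reached at most 3.71, 9.96, 5.78, 2.39, 87.2 and 3.51 CPM. Most of the stimulated dendritic cell sum was Bst2, at a mean of 68.3 CPM. All tested members of the T cell (5), NK cell (2), erythroid (4) and monocyte and neutrophil (1) lists were lower, though 2 of these, Lck and Prf1, did not pass without some samples. Of 4 dendritic cell markers tested, 1 was higher and 2 were lower. The endothelium and stroma list was at 351 to 380 CPM in naive samples, nearly all of it Pecam1, and 3 of 4 tested genes were lower. Among these, Pdgfrb did not pass without some samples. Of 4 plasma cell genes tested, 3 were higher and 1 lower, and the sum went from 363 to 542 CPM up to 786 to 854.

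The genes whose 6-sample pattern was most like a member's were found by the root mean square difference of log2(CPM + 1), each gene centred on its own mean, among 6762 genes with a mean of at least 100 reads. For Mylip these were Dok3 (an adaptor that restrains B cell receptor signalling) at 0.0700, Cyp4f18 (a cytochrome P450) at 0.116 and Phf1 (a Polycomb-like protein) at 0.128. For Shisa5 they were Ahnak at 0.147, Plaur (the urokinase receptor) at 0.150 and H2-Oa at 0.161, a chain of the H2-O molecule that B cells use to tune antigen loading. Dok3, the closest of all, went from 58.7 to 3.6 CPM.

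For Tcp11l2 the nearest were Gm20506 at 0.188, Fcer2a at 0.234 and Irf7 (an interferon regulatory factor) at 0.240. For Arhgef18 they were Plaur at 0.126, Zfp831 at 0.148 and Entpd1 (the ectonucleotidase CD39) at 0.217. Plaur was thus near both Shisa5 and Arhgef18, though naive replicate 2 was the highest naive sample for Shisa5 and the lowest for Arhgef18. The measure takes in the fall, which chose the members, so these distances are a description. For Kbtbd11 they were Gm5150 at 0.190, Ephx1 (an epoxide hydrolase) at 0.211 and Slc16a9 at 0.233, and Gm5150 and Slc16a9 had 0 CPM in every stimulated sample, where the added 1 sets their value. The members differed from each other by 0.204, between Mylip and Shisa5, up to 0.807, between Mylip and Kbtbd11.

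The balance between the 2 alleles in naive cells was not used to choose the genes and was tested in edgeR over 9030 autosomal genes. Of these, 22% differed between alleles, 13.5% toward Cast and 8.53% toward 129, around a median log2 Cast over 129 of 0.12. When each allele was scaled to its own library size the median moved to 0.00, and the split between the 2 directions moved from 1217 and 770 genes to 1023 and 1010. Without naive replicate 2, 1060 genes passed against 1987 with it. Of the 5 members, 3 passed the test, 2 toward Cast and 1 toward 129.

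Kbtbd11 reads were 86.6%, 86.6% and 89.5% Cast in naive replicates 1, 2 and 3. Its log2 Cast over 129 was 2.82 with an SE of 0.11, or 7.05-fold (adjusted p = 3.63e-04, edgeR), and all 3 naive samples showed it. By size of the difference it was at place 368 of the 9030 genes. Arhgef18 reads were 70.9%, 71.1% and 75.3% Cast, with a log2 value of 1.39 and an SE of 0.09, or 2.63-fold (adjusted p = 0.00107, edgeR), again in 3 of 3 samples. The Cast excesses of Kbtbd11 and Arhgef18 passed under every alternative run. A430078G23Rik, the gene model that RefSeq lists as another name of Arhgef18, had a smaller Cast excess. Its naive reads were 60.3% ± 1.78 Cast (SD, n = 3; adjusted p = 0.0153, edgeR).

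Mylip reads were 43.8%, 41.9% and 43.6% Cast, a log2 value of -0.40 with an SE of 0.06 toward 129 in 3 of 3 samples (adjusted p = 0.0151, edgeR). This call was lost in DESeq2 (adjusted p = 0.232) and without naive replicate 2 (0.0758) or 3 (0.0548). Over its alternatives the adjusted p ran from 0.00741 to 0.232. Tcp11l2 reads were 41.6%, 48.9% and 41.5% Cast and did not pass (log2 -0.35, SE 0.11, adjusted p = 0.0988, edgeR). With each allele scaled to its own library size Tcp11l2 passed, at -0.47 and an adjusted p of 0.0434. Shisa5 reads were 48.7%, 50.4% and 50.3% Cast, a log2 value of -0.01 with an SE of 0.05 (adjusted p = 0.911, edgeR).

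After CpG the shares rested on few reads. The stimulated samples had 93.3%, 84.4% and 93.1% Cast reads in Kbtbd11, where 95% Wilson intervals reached down to 68.2% and up to 98.2%. In Arhgef18 they had 67.3%, 67.9% and 69.5%. Both genes stayed mostly Cast. In Mylip the shares were 47.7%, 51.5% and 59.7%, in Tcp11l2 54.7%, 41.8% and 47.5%, and in Shisa5 47.0%, 48.3% and 42.2%. The intervals cover counting error only, since the reads carried no molecular identifiers that would tell molecules apart.

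**Figure D4:**
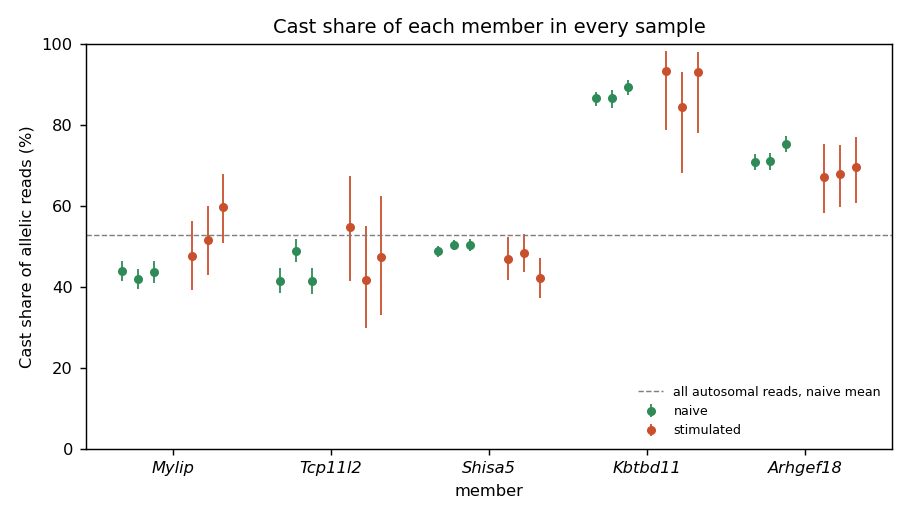
Cast reads as a percent of 129 and Cast reads for each member and sample, with 95% Wilson intervals as bars and naive and stimulated samples in separate colours. Kbtbd11 and Arhgef18 lie well above the share of all autosomal genes, 52.7% in naive samples, before and after CpG, while the naive samples of Mylip, Tcp11l2 and Shisa5 lie below it.

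Kbtbd11 and Arhgef18 both lie on chromosome 8, which stood apart in this cross. There, 181 of 496 tested genes (36.5%) were higher on the Cast allele in naive cells, against 12.1% on the other autosomes together, and 58.8% of its reads were Cast. Among the tested genes nearest to Arhgef18, 2 before (A430078G23Rik among them) and 10 after, 9 were toward Cast, the median log2 Cast over 129 was 1.50, and 6 had a larger value than Arhgef18. Around Kbtbd11, 4 of the 20 nearest were toward Cast, the median was 0.31, and 0 of the 20 had a value as large as its 2.82. The excess of Arhgef18 was thus common to its stretch of the chromosome and that of Kbtbd11 was larger than that of its neighbours. These neighbourhoods were chosen after seeing the data. More RNA from the Cast allele and more reads given to the Cast annotation cannot be told apart here.

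Some genes next to the members fell as well. Cln8, an endoplasmic reticulum protein gene just before Kbtbd11, had a log2 difference of -5.09 after CpG, and Arhgef10, between them, -3.59. Of the naive reads, 54.9% ± 1.82 (SD, n = 3) were Cast in Cln8, 78.9% ± 10.9 (SD, n = 3) in Arhgef10 and 77.1% ± 7.41 (SD, n = 3) in Erich1, the gene before Cln8. Beside Mylip, Fam8a1 had -2.43, while Cd83, an activation marker of B cells, had 1.43. The nearest genes of Tcp11l2 and Shisa5 with at least 50 naive reads differed by -1.21 to 1.29.

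The genes around Mylip's pathway were tested in the summed fit, where the lists had been set with earlier results known. Of 13 tested genes of the list of lipoprotein receptors, LXR and its targets, 2 were higher, 8 were lower and 3 did not pass, with a median log2 difference of -0.48 against -0.01 over all genes. Lrp8, a lipoprotein receptor that Mylip targets, rose from 3.53 to 31.9 CPM, a log2 difference of 3.14 with an SE of 0.40 (adjusted p = 1.05e-04, edgeR). Of the LXR targets on the list, Abca1, a cholesterol exporter, went from 610 ± 69.7 to 25.1 ± 16.4 CPM (SD, n = 3 each), a log2 difference of -4.60, and Abcg1, another exporter, had -4.45, while Srebf1, a regulator of lipid synthesis, had 0.25 and did not pass (adjusted p = 0.236, edgeR). Among the receptors, Nr1h3 (LXR alpha) had 183, 102 and 137 naive reads and at most 2 after CpG, at least 58.2-fold lower, while Nr1h2 (LXR beta) had -0.48. Nr1h3 fell further than Nr1h2 and is a gene that macrophages express strongly. The macrophage list moved with it, and its part in these falls was not tested.

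The p53 list around Shisa5 was mixed. Of 14 tested genes, 8 were higher, 3 were lower and 3 did not pass, with a median log2 difference of 0.48, while their summed level after CpG was 79.4% of the naive one. Trp53 itself rose by 1.04 (SE 0.12) and Ccng1 (cyclin G1) by 0.51 (SE 0.12). Mdm2, which degrades p53, did not pass, at 0.46 (SE 0.28). Perp, a p53 target of cell membranes, had 0 reads in each naive sample and 41, 64 and 41 after CpG, at least 13.1-fold higher against a floor of 3 reads per library.

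Cdkn1a, the cell cycle inhibitor p21, rose by 1.82 (SE 0.57, adjusted p = 0.0180, edgeR), but its adjusted p was 0.0643 without naive replicate 1 and 0.0544 without stimulated replicate 1. Sesn1, a stress-induced sestrin, fell with a log2 difference of -3.75 (SE 0.44), and Trp53inp1, a p53-induced nuclear protein, with -3.49 (SE 0.16). These 2 fell nearly as far as Shisa5. Of 7 matched genes of the Shisa family, 1 was tested. Shisa3 had 0 reads in each naive sample and 33, 143 and 16 after CpG, at least 17.2-fold higher, and passed (adjusted p = 0.0171, edgeR) but not when genes of low count were kept in the test (0.135).

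Most tested small GTPase genes around Arhgef18 were lower, with a median well short of the fall of Arhgef18 itself, which was chosen by its fall. Of 15 tested small GTPases and effectors, 1 was higher, 11 were lower and 3 did not pass, with a median log2 difference of -0.50. RhoA, the GTPase that Arhgef18 activates, fell by 0.49 on the log2 scale (SE 0.09). Its kinase Rock1 had -0.29 (SE 0.09, adjusted p = 0.0197, edgeR) and did not pass without naive replicate 3 (0.0706) or stimulated replicate 3 (0.0769), and Rock2 had 0.14 (SE 0.11) and did not pass. Rac1, a GTPase of membrane ruffling, was the gene that rose, by 0.41 (SE 0.10). The largest falls were those of Rhob (-3.74, SE 0.43) and the myosin light chain Myl12b (-1.91, SE 0.12).

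Among 15 tested guanine nucleotide exchange factors, 2 were higher, 10 were lower and 3 did not pass, with a median log2 difference of -0.73. Arhgef1, an exchange factor prominent in leukocytes, had -1.93 (SE 0.17), Arhgef2 -1.31 (SE 0.12) and Arhgef10 -3.59 (SE 0.43). Arhgef39 rose by 3.04 (SE 0.49). Arhgef6 rose by 0.48 (SE 0.17, adjusted p = 0.0331, edgeR), with adjusted p-values of 0.0947 to 0.0989 without naive replicate 1 or 3 or stimulated replicate 2.

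The cullin 3 and BTB-kelch list around Kbtbd11 was mixed. Of 22 tested genes, 8 were higher, 5 were lower and 9 did not pass, with a median log2 difference of 0.29. Cul3, the scaffold of these ligases, had 0.40 (SE 0.15, adjusted p = 0.0373, edgeR), and did not pass in DESeq2 (0.0832), by library size alone (0.0502) or in 5 of the 6 fits that leave out a sample (up to 0.139). The RING subunit Rbx1 had 0.28 (SE 0.17) and did not pass. Nedd8, the modifier that activates cullins, rose by 1.28 (SE 0.19) and Kbtbd8 by 0.97 (SE 0.27).

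Klhl6, a BTB-kelch protein of germinal centre B cells, rose by 0.92 (SE 0.17). Klhl24 fell from 1122 to 153 CPM, a log2 difference of -2.87 (SE 0.12), and Klhl14 had -1.36 (SE 0.19). No tested gene of this list fell as far as Kbtbd11, which was chosen by its fall. Around Tcp11l2 all 4 tested genes were lower, with a median log2 difference of -1.55. Fmnl2, the formin named above, had 118, 73 and 80 naive reads and 3, 2 and 3 after CpG, at least 37.2-fold lower. Fmnl1, a formin of blood cells, had -1.96 (SE 0.11). Tcp11l1 had -1.14 (SE 0.34, adjusted p = 0.0141, edgeR) and did not pass without naive replicate 3 (0.0577) or stimulated replicate 3 (0.0543).

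**Figure D5:**
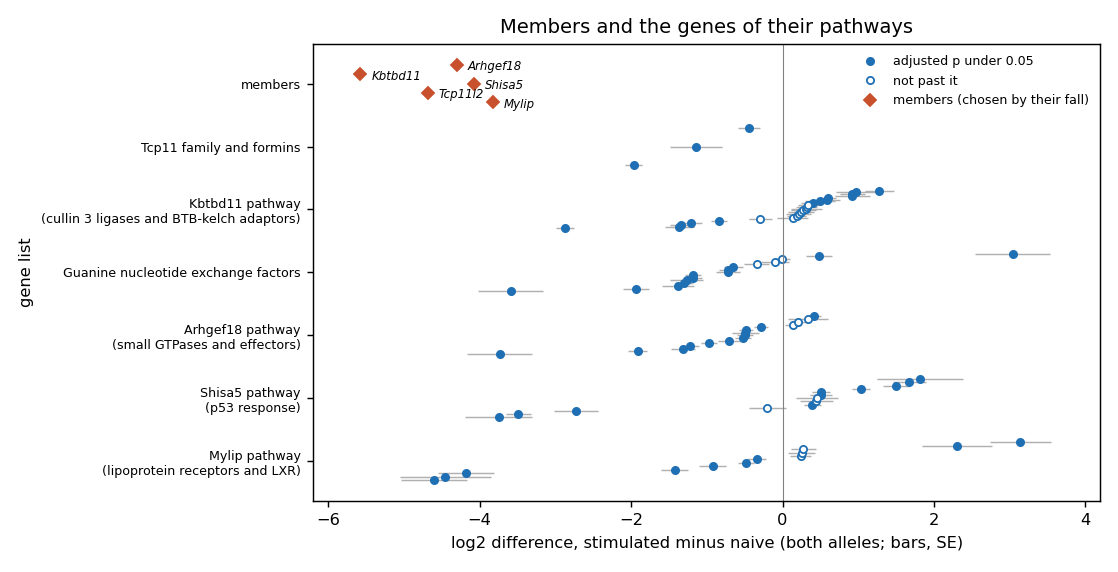
Log2 difference between stimulated and naive samples, both alleles summed, for the members and for the tested genes of the lists around them; bars are SE, filled points passed an adjusted p of 0.05 and open points did not, and genes with at most 3 reads in every sample of a group are left out. The members lie between -5.58 and -3.83, below nearly all genes drawn, while the lists spread on both sides of 0.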

How the data were processed

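RNA was measured in 3 naive and 3 stimulated samples. The authors' deposited tables held raw read counts per gene, 1 per strain annotation and sample, with no normalization. The submitters' processing notes name STAR, Subread 2.0.0, featureCounts and mm10, without roles; how a read was given to a strain is not given in the sources used here. A gene of one strain was joined to that of the other where both had the same chromosome and a name that was unique in its table. Genes without a name held 5.10% to 19.7% of a table's gene reads and were left out of the matched counts. The members and lists were chosen with earlier results of these data known.

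The deposited counts were tested with edgeR 4.0.16 in R 4.3.3 (TMM, filterByExpr, robust quasi-likelihood test, Benjamini-Hochberg adjustment at 0.05 over all genes tested), for each allele and for both summed. The naive allele test blocked on the sample and scaled its 2 alleles alike. The summed fit and the naive allele fit were run on simulated data, with far fewer genes changed than were called in the real data. The fit of allele ratio changes was not simulated. Alternatives were DESeq2 1.42.0, other scalings and filters, a replicate block and leaving out each sample. Named genes were the members, the 3 genes of the most similar pattern for each, direct partners and the 2 largest rises and falls of each pathway list, and the most abundant markers; some genes of these lists are not reported here. Samples of the same number deviated together, with correlations of 0.189, 0.157 and 0.208 over 10343 genes against -0.116 to -0.0605 for other pairs. The main fits of stimulated against naive samples nevertheless ignored the replicate number. It entered only as the replicate block among the alternatives. No 2 libraries of a group agreed within sampling noise (chi-square per degree of freedom 6.06 to 16.0).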

Additional observations from a re-analysis of the deposited data

How the results depend on the processing

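The falls of the 5 members kept their direction in every alternative run. With the replicate number as a block, the genes called were 6884 on the 129 allele, 6868 on the Cast allele and 7271 with both summed, against 5842, 6445 and 7105 without it. The block changed 5 of the pathway genes' calls and no marker's call; Srebf2 (adjusted p = 0.0438), Myl12a (0.0190), Arhgef12 (0.0342) and Klhl5 (0.0308) were gained in edgeR and 1 call was lost. Across all alternatives, 20 of 84 pathway genes and 5 of 62 marker genes changed their call under at least 1. Leaving out 1 sample gave 5216 to 5477 genes on the 129 allele, 5987 to 6319 on the Cast allele and 6603 to 7067 summed, 55 to 65 pathway genes against 63, and 58 to 63 marker genes against 59. The naive allele count fell from 1987 to between 1060 and 1589, lowest without naive replicate 2, and the count of changed allele ratios from 102 to between 15 and 30, where fewer samples enter the fit. DESeq2 gave 1522 naive allele calls. Mylip's naive log2 Cast over 129 was -0.40 in DESeq2 (adjusted p = 0.232) and -0.42 to -0.36 without 1 naive sample, and that of Tcp11l2 was -0.47 with each allele's own library size. The members' median naive CV was 3.76% without naive replicate 2 and up to 16.1% without another, so that replicate carried most of the naive spread; the cause was not tested. Reads per gene limit the stimulated allele shares, most of all for Kbtbd11 with 29 to 32 reads per sample.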
